A study of Mus musculus with 2 samples.

Results

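Voltage-gated sodium channels open when the membrane is depolarised and carry the inward current that starts and propagates the action potential. Each channel has a large alpha subunit, which forms the pore and senses voltage, and smaller beta subunits, which are single-pass membrane proteins that alter gating and surface delivery. In rodent brain, Scn3a is known as the alpha gene of the embryonic period, Scn2a and Scn8a as those of the axon initial segment of principal neurons, and Scn1a as an alpha gene on which many inhibitory neurons rely.

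Here 6 genes of this family were described, of the 32285 genes in the files, and they were taken by symbol: the alpha subunit genes Scn1a, Scn2a, Scn3a and Scn8a, and the beta subunit genes Scn2b and Scn3b. The data were Slide-tags single-nucleus RNA-seq, in which the nuclei of a tissue section receive spatial barcodes before droplet sequencing; the positions were not analysed here. One library came from the hippocampus of male C57BL/6J mice at 56 days of age, and the other from the brain of a C57BL/6J embryo at embryonic day 14 (E14), with no treatment or engineered allele named for either. The adult section was a punch around the hippocampus, and the E14 section was a sagittal cut through the brain. There was 1 library per tissue, so nothing was tested between groups, and intervals cover counting error only. Tissue, age, library and Cell Ranger version (6.1.2 for the adult, 7.0.1 for E14) differed together and cannot be told apart.

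A UMI stands for 1 captured RNA molecule. Levels are given as CPM, the UMIs of a gene in all nuclei of a class for every 1000000 UMIs of those nuclei, with an exact 95% Poisson interval. The kept nuclei numbered 1609 in the adult library (median 6607 UMIs) and 9036 at E14 (median 4204 UMIs), and the libraries shared 1 cell barcode. Classes were set for each nucleus from marker genes that include none of the 6 genes, and are called "like" for that reason. A neuron was a nucleus whose markers favoured a neuronal over a non-neuronal list; 843 adult and 5045 E14 nuclei passed. Of these, 30 adult and 847 E14 neurons were within 3 log-likelihood units of the limit. A further 15.4% of adult and 31.3% of E14 nuclei stayed unassigned. The median neuron carried 57 UMIs of the 8 general neuron markers in the adult and 25 at E14, against 0 in adult non-neuronal nuclei and 1 in E14 radial glia-like nuclei, but 18 in choroid plexus-like and 48 in the deeper committed progenitor-like nuclei of E14. Markers of the dentate gyrus, CA1 and CA3 were found in the adult library, as its label implies, and so were those of thalamus and cortex. In such sums, fewer nuclei with a gene and less of its RNA per nucleus cannot be told apart. The classes are ranges rather than clean types: the median CA3-like nucleus held 39 UMIs of its own list and 40 of the cortical list, and the median CA1-like nucleus 10 of its own and 6.5 of the cortical list. The median dentate granule-like nucleus held 13 UMIs of its own list and 21 of the inhibitory list. At E14 the general neuron list exceeded the own list in the median cortical excitatory-like nucleus (30 against 6) and hypothalamic-like nucleus (37 against 9). It did so too in the median thalamic-like (25 against 21) and committed progenitor-like nucleus (48 against 4). The median fibroblast-like nucleus held 13 UMIs of its own list and 17 of the thalamic list. Nuclei were assigned by likelihood over all markers rather than by these sums.

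The 3 alpha genes on chromosome 2 lie in 1 cluster (GRCm38, GENCODE vM21): Scn3a at chr2:65457118-65567627 on the minus strand, Scn2a at chr2:65620771-65767447 on the plus strand and Scn1a at chr2:66270778-66440840 on the minus strand. Scn8a lies apart at chr15:100869858-101045938, and both beta genes are on chromosome 9, Scn3b at chr9:40269217-40291618 and Scn2b at chr9:45117782-45130070, all 3 on the plus strand. The alpha genes span 110.5 to 176.1 kb and the beta genes 12.3 kb (Scn2b) and 22.4 kb (Scn3b). Reads from introns were counted, so longer genes offer more sequence to be counted, and levels are compared between genes only per kb. RefSeq (GRCm38.p6) promoter entries matched 4 of the 6 genes, without Scn3a and Scn3b. The 250 bases before an annotated start are shown for Scn8a and Scn2a, the alpha genes with the highest and lowest level in E14 radial glia-like nuclei relative to neurons. Capitals mark CpG dinucleotides, and both runs read 5′ to 3′ on the plus strand. They lie at chr15:100870395-100870644 and chr2:65620519-65620768, and neither overlaps an annotated exon.
Scn8a: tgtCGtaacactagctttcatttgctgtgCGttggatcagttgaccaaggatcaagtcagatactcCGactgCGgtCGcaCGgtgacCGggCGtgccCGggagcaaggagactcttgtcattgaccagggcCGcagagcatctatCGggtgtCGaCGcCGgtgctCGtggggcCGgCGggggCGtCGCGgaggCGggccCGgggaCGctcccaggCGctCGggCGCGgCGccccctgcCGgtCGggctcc
Scn2a: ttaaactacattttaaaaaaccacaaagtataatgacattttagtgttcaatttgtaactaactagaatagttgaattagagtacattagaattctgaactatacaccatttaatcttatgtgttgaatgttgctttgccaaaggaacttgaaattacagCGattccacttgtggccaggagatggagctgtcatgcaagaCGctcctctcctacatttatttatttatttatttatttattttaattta
The Scn8a window held 30 CpG dinucleotides and was 68% G or C; 5.94% of the 32851 windows of this length in the table held as many or more. The Scn2a window held 2, with 29.6% G or C, and 29.0% of windows held as few or fewer. The Scn8a window lies inside the gene's GENCODE span, in an intron, and the Scn2a window just before its gene. Each gene has a second entry farther downstream, and those 2 windows held 9 CpG dinucleotides each. Nothing on regulation was measured here, so the windows are a description.

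In neurons, 4 of the 6 genes were at least 2-fold higher in the adult than in the E14 library, Scn1a, Scn2a, Scn8a and Scn2b, and 1 was at least 2-fold lower, Scn3a. Among 16424 genes with at least 50 UMIs in both pools together, 15.9% were at least 2-fold higher and 23% at least 2-fold lower. The median log2 fold was 1.24 for the 6 genes and -0.17 for all genes.

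Scn3a encodes the alpha subunit that predominates before birth. It stood at 403 CPM in E14 neurons (95% interval 396 to 410) and at 131 (125 to 138) in adult neurons, 3.06-fold lower (2.91 to 3.23). Scn1a, the alpha gene whose loss in 1 copy underlies a severe childhood epilepsy in people, went from 67.4 (64.6 to 70.3) to 185 (178 to 193) CPM, 2.75-fold higher in the adult neurons (2.59 to 2.92). Scn8a, which supplies the channels of mature initial segments and nodes of Ranvier, was at 132 (128 to 136) in E14 and 469 (457 to 481) in adult neurons, 3.56-fold higher (3.42 to 3.70).
The pools thus stood apart in opposite directions for Scn3a and for the other alpha genes. Scn2a, the alpha gene of the early initial segment, was close to the 2-fold limit: 176 (172 to 181) CPM at E14 and 358 (348 to 369) in the adult, 2.03-fold higher (1.95 to 2.11).
The beta genes differed from each other. Scn2b, whose protein is bound to the alpha subunit by a disulfide bond, was at 7.45 (6.54 to 8.45) CPM in E14 neurons and at 67.6 (63.0 to 72.4) in adult neurons, a 9.07-fold difference (7.85 to 10.5). Scn3b, whose protein binds without one, was already at 87.8 (84.6 to 91.0) at E14 and reached 135 (129 to 142) in the adult, 1.54-fold higher (1.45 to 1.64). With each neuron subclass of both libraries given equal weight, the Scn1a fold was 4.58. The E14 neuron list used in both libraries left 181 adult neurons rather than 843. Nearly all dentate granule-like nuclei were left out (4 remained), and many of the other adult neurons too. With that list the folds were 5.81 for Scn1a and 14.1 for Scn2b, and Scn3b turned to 0.569. Per kb of gene, Scn3b was the highest of the 6 in both neuron pools, at 3.92 CPM per kb at E14 and 6.04 in the adult. By CPM it was not, as Scn3a was highest at E14 (403) and Scn8a in the adult (469). The place of Scn3b thus rests on the division by length, and whether UMIs rise in proportion to length was not tested.

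**Figure D1:**
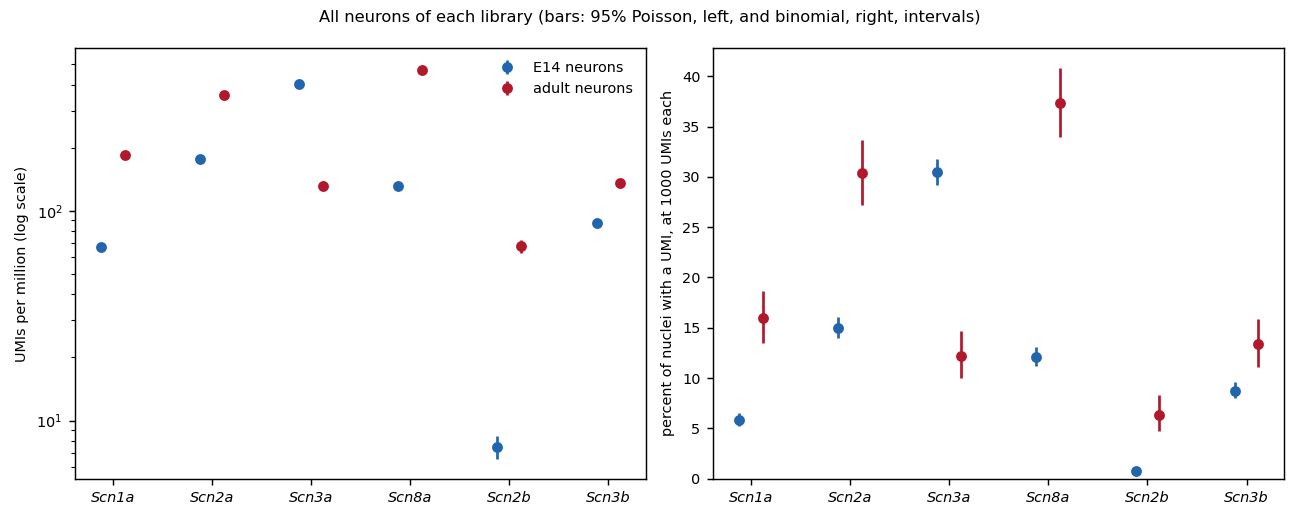
Left, CPM on a log axis, and right, percent of nuclei with a UMI after thinning each nucleus to 1000 UMIs, for the 6 genes in all E14 neurons (blue) and all adult neurons (red); bars are 95% counting intervals. In both panels Scn3a is the 1 gene whose E14 value is above the adult value, 403 against 131 CPM and 30.5% against 12.2% of nuclei.

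Shares of nuclei depend on depth, and the median neuron held 12626 UMIs in the adult and 4799 at E14. With every nucleus thinned to 1000 UMIs, leaving out 42 adult and 137 E14 neurons, a Scn3a UMI was found in 12.2% of adult neurons (95% Clopper-Pearson interval 10.0 to 14.7) and 30.5% of E14 neurons (29.2 to 31.8). A Scn1a UMI was found in 16.0% (13.5 to 18.7) of adult and 5.89% (5.25 to 6.58) of E14 neurons. Thinned shares thus had the same order between the pools as the summed levels. Without thinning, the Scn3a shares were 65.95% and 73.9%, and the Scn1a shares 71.6% and 27.4%. As background, the thinned Scn3a share was 1.32% in adult oligodendrocyte-like nuclei (median 2928 UMIs) and 2.97% in E14 radial glia-like nuclei (median 4052 UMIs), and the Scn1a shares there were 2.20% and 1.06%. The thinned Scn2b share was 0.774% (0.548 to 1.06) in E14 neurons, 0 in radial glia-like nuclei (up to 0.778%) and 1.12% (0.231 to 3.24) in fibroblast-like nuclei, so at this depth the neurons could not be set apart from the fibroblast-like nuclei by this share. At full depth 48.0% of adult neurons and 10.6% of E14 neurons held UMIs of all 4 alpha genes, and 4.51% and 12.1% held none of them, with the depth difference given above.

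Of the UMIs of the 4 alpha genes, Scn3a made up 51.7% in E14 neurons (95% interval 51.1 to 52.4; 25287 UMIs) and 11.5% in adult neurons (10.96 to 12.0; 13777 UMIs). The other parts of these UMIs in adult neurons were 41.0% (40.2 to 41.8) from Scn8a, 31.3% (30.5 to 32.1) from Scn2a and 16.2% (15.6 to 16.8) from Scn1a, and in E14 neurons 16.9% (16.5 to 17.4), 22.7% (22.1 to 23.2) and 8.66% (8.32 to 9.02). Such parts of UMIs are compared between classes for 1 gene at a time. The genes were ordered after division by gene length, where Scn3a made up 60.8% at E14, ahead of Scn2a at 20.1%, Scn8a at 12.5% and Scn1a at 6.62%. Per length in adult neurons, Scn8a came first at 36.1%, then Scn2a at 33.1%, Scn3a at 16.1% and Scn1a at 14.8%, so Scn3a and Scn8a exchanged their order between the libraries. Without division by length, Scn1a would stand above Scn3a in the adult.

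**Figure D2:**
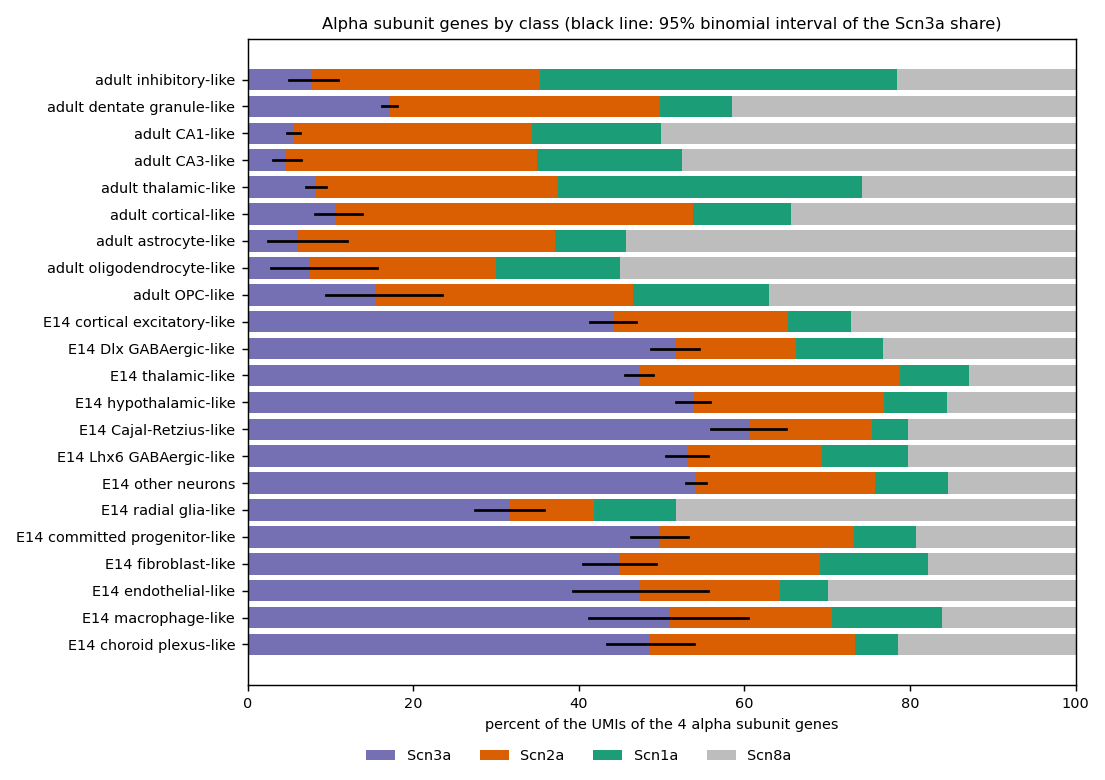
Percent of the UMIs of the 4 alpha subunit genes that came from Scn3a (purple), Scn2a (orange), Scn1a (green) and Scn8a (grey), for each class with at least 50 such UMIs; the black line is the 95% binomial interval of the Scn3a share. Scn3a holds between 44.1% and 60.6% in the E14 neuron classes and between 4.55% and 17.1% in the adult neuron classes.

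The Scn3a share was between 44.1% and 60.6% in the 7 E14 neuron classes and between 4.55% and 17.1% in the 6 adult ones. The ranges of the libraries thus did not overlap. Of the E14 classes, 1 (other neurons) is a group without a name of its own. These classes do not cover all neurons: 1783 E14 and 84 adult neurons took no subclass, and 217 E14 nuclei fell to the unnamed striatal list. The share in neurons without a subclass was 50.8% (49.6 to 52.0) at E14 and 10.3% (7.04 to 14.3) in the adult. Thalamic-like neurons were found in both libraries, and there the share was 47.2% (45.5 to 49.0) in 508 E14 nuclei and 8.19% (7.04 to 9.47) in 88 adult nuclei. Cortical neurons could be set side by side too, with 44.1% (41.4 to 46.9) in 320 E14 cortical excitatory-like and 10.7% (8.12 to 13.8) in 27 adult cortical-like nuclei. Among inhibitory neurons, the share was 53.1% (50.5 to 55.7) in 258 E14 Lhx6 GABAergic-like nuclei and 7.58% (5.01 to 10.9) in 23 adult inhibitory-like nuclei. These classes were matched by region or transmitter from their marker lists only, and are not the same neurons at both ages. In E14 neurons split by depth into equal shallow, middle and deep sets, the share was 52.5%, 50.3% and 52.2%.

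Within the adult hippocampus, Scn3a was higher in dentate granule-like nuclei than in CA1-like and CA3-like nuclei. It was at 200.2 CPM (188 to 213) in 394 dentate granule-like nuclei, at 57.4 (49.7 to 65.8) in 194 CA1-like nuclei and at 43.2 (29.1 to 61.6) in 33 CA3-like nuclei. The dentate value was 3.49-fold that of CA1 (3.00 to 4.08), while the CA1 and CA3 intervals overlapped. Adult thalamic-like nuclei at 117 (99.8 to 136) and cortical-like nuclei at 111 (83.3 to 145) lay between dentate granule and CA1. The pair of classes was chosen after the levels had been seen. Of the 6 genes Scn3a was the 1 at least 2-fold higher in dentate granule-like than CA1-like nuclei, where 10.7% of 11365 genes were, and none was at least 2-fold lower, where 7.08% were. The median log2 fold was -0.19 for the 6 genes and 0.11 for all genes. In shallow, middle and deep sets of equal size, the Scn3a share of alpha UMIs was 15.6%, 16.9% and 17.6% in dentate granule-like nuclei and 5.76%, 4.77% and 5.90% in CA1-like nuclei, so the gap was present in every set. The dentate share over all depths was 17.1% (16.2 to 18.1), and that of CA1 was 5.50% (4.79 to 6.29).

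Scn1a was at its highest in inhibitory-like and thalamic-like neurons of the adult section. The 23 inhibitory-like nuclei, led by Dlx6os1, Reln, Erbb4 and Gad2, held 528 CPM (447 to 620), and the 88 thalamic-like nuclei 524 (487 to 563). These values cannot be ordered at this depth, and both lay above CA3 at 167 (138 to 200), CA1 at 163 (149.9 to 177), cortical at 124 (94.2 to 160) and dentate granule at 103 (94.1 to 111). The Scn1a part of alpha UMIs was 43.1% (37.8 to 48.6) in inhibitory-like, 36.7% (34.6 to 38.9) in thalamic-like and 8.76% (8.07 to 9.48) in dentate granule-like neurons.
Against the 736 excitatory-like neurons pooled, Scn1a was 2.97-fold higher in the inhibitory-like nuclei (2.495 to 3.51), and it was the 1 member at least 2-fold higher there, where 10.8% of 12388 genes were. Scn3b, 3.86-fold lower (2.10 to 8.07), and Scn2b, 2.37-fold lower on 8 UMIs (1.20 to 5.51), were at least 2-fold lower, where 20.8% of genes were. With Seurat clusters the Scn2b fold was 0.758 (0.508 to 1.09), no longer past the limit. The median log2 fold of the 6 genes was -0.68, against -0.09 for all genes. Scn2a differed little between these pools, with a fold of 0.946 whose interval, 0.763 to 1.16, held 1.

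Scn8a and Scn3b were at their highest in CA1-like neurons. Scn8a was at 521 CPM (498 to 546) in CA1, 486 (467 to 505) in dentate granule and 450.3 (402 to 503) in CA3, and the intervals of neighbours in this order overlapped. It was lower in thalamic-like neurons at 368 (337 to 400.4) and in inhibitory-like neurons at 264 (207 to 332). Scn8a made up 50.0% (48.4 to 51.7) of the alpha UMIs in CA1, its largest part in an adult neuron class.
Scn3b varied more. It was at 197 (182 to 212) CPM in CA1, 139 (130 to 150) in dentate granule and 104 (81.1 to 130) in CA3, and at 31.7 (23.1 to 42.4) in thalamic-like neurons. Scn2b ran the other way between thalamic-like neurons, at 134 (116 to 155) CPM, and CA1, at 63.9 (55.8 to 72.8). The order was not opposite among the hippocampal classes, where CA1 had the highest value of both beta genes. Scn2b was at 53.2 (37.5 to 73.4) in CA3 and 53.0 (47.1 to 59.6) in dentate granule, with intervals that overlapped that of CA1.
Between thalamic-like and CA1-like neurons, a pair also chosen after the levels were seen, 3 members were at least 2-fold higher in thalamic-like nuclei, Scn1a at 3.21-fold (2.88 to 3.59), Scn2b at 2.10-fold (1.73 to 2.56) and Scn3a at 2.04-fold (1.65 to 2.51), where 12.9% of 9725 genes were. Scn3b was 6.21-fold lower (4.59 to 8.60), the 1 member at least 2-fold lower, where 12.7% of genes were. Median log2 folds were 0.75 for the 6 genes and 0.06 for all. Scn2a ranged over the adult neuron classes from 288 (249.2 to 331) in CA3 to 447 (389 to 511) in cortical-like neurons.

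**Figure D3:**
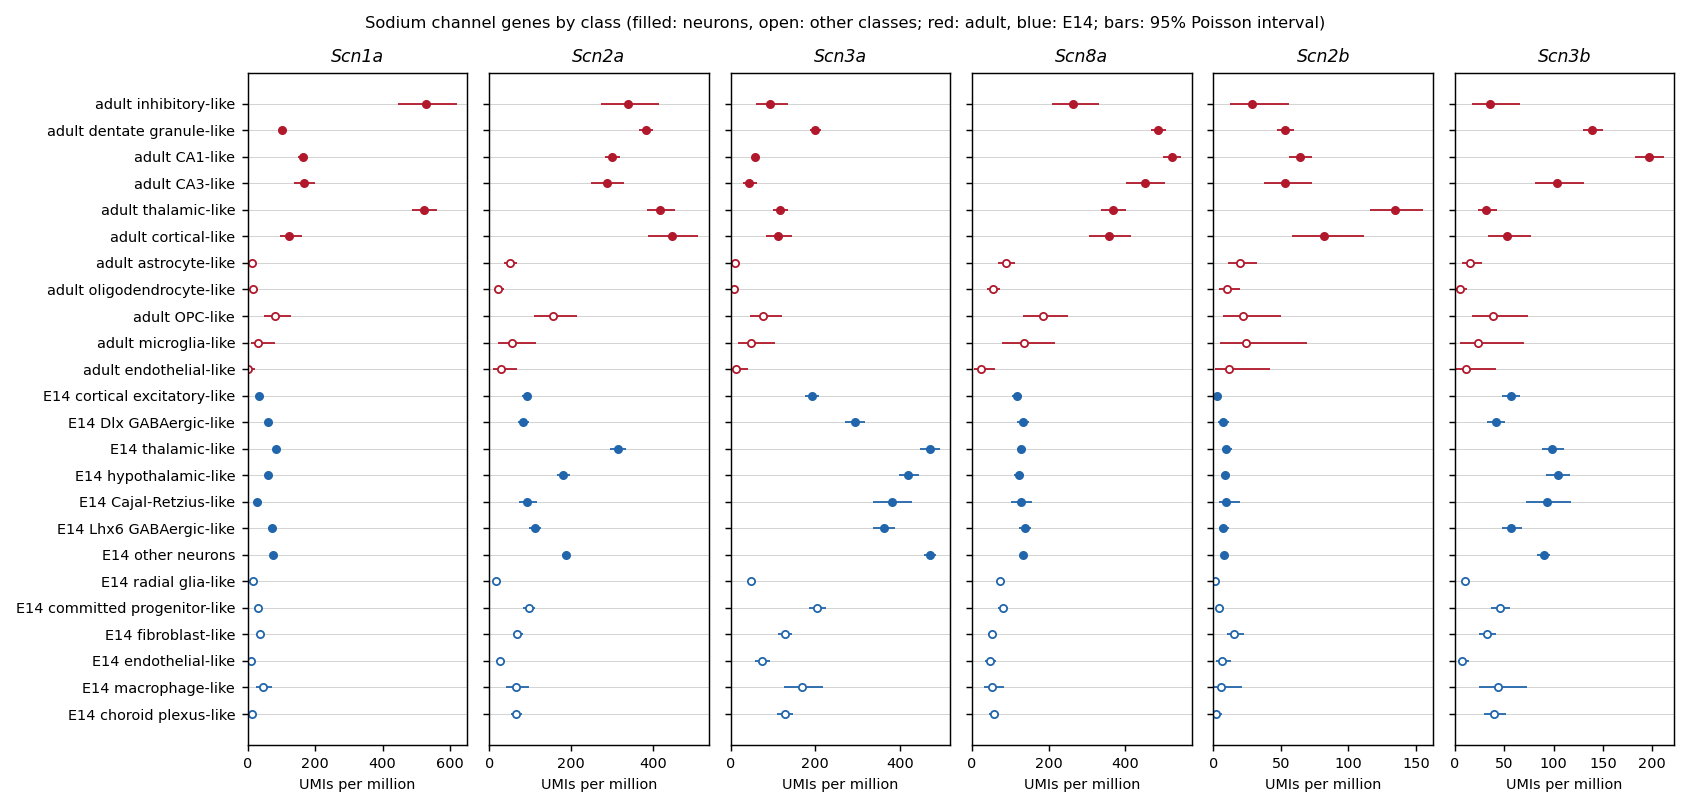
CPM of each gene (1 panel each, linear axis from 0) in every class with at least 20 nuclei, with 95% Poisson intervals; filled points are neuron classes and open points other classes, red for the adult and blue for the E14 library. Scn1a peaks in adult inhibitory-like (528) and thalamic-like (524) neurons, Scn3a in E14 thalamic-like neurons (470.5) and the other E14 neurons (471), and Scn3b in adult CA1-like neurons (197).

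At E14, Scn3a was highest in neurons that only the general neuron list set apart (called other neurons here, with Hs3st5 and Gfra1 among the leading genes) at 471 CPM (456 to 487) and in thalamic-like neurons at 470.5 (448 to 494), which cannot be ordered. It fell through hypothalamic-like at 420.1 (397 to 444), Cajal-Retzius-like at 380.4 (337 to 428), Lhx6 GABAergic-like at 362 (337 to 388) and Dlx GABAergic-like at 293 (270.1 to 317) to cortical excitatory-like neurons at 191 (176 to 208). The lowest neuron class was thus cortical excitatory-like, whose Scn3a interval overlapped that of committed progenitor-like nuclei at 205 (186 to 226). The median committed progenitor-like nucleus held 4 UMIs of its own list and 48 of the general neuron list, so this is not the level of clean progenitors. Cajal-Retzius-like neurons, the early Reln-positive cells of the cortical surface, had the largest Scn3a share of alpha UMIs, 60.6% (55.9 to 65.1), and the smallest Scn1a share among neurons, 4.36% (2.68 to 6.65).
Scn2a stood apart in thalamic-like neurons at E14, at 314 CPM (296 to 334). The next classes were the other neurons at 188 (179 to 198) and hypothalamic-like neurons at 181 (166 to 197), and the remaining 4 neuron classes lay between 82.8 and 111. Scn2a made up 31.6% (30.0 to 33.2) of the alpha UMIs of E14 thalamic-like neurons and 14.6% (12.6 to 16.7) of those of Dlx GABAergic-like neurons.
Scn8a hardly varied among E14 neurons: its 7 class levels ran from 117 (105 to 131) in cortical excitatory-like to 138 (123 to 154) in Lhx6 GABAergic-like neurons, and the interval of each class overlapped that of the next. Scn1a was at 83.0 (73.6 to 93.4) in thalamic-like and 71.2 (60.4 to 83.4) in Lhx6 GABAergic-like neurons, and at 33.0 (26.8 to 40.3) and 27.4 (16.7 to 42.3) in cortical excitatory-like and Cajal-Retzius-like neurons. The class with the highest Scn1a at E14 was therefore below the lowest adult neuron class, dentate granule-like, whose interval started at 94.1. Scn3b ranged from 41.2 (32.9 to 50.9) in Dlx GABAergic-like to 104 (92.9 to 117) in hypothalamic-like neurons. Scn2b was under 10 CPM in all 7 E14 neuron classes.

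Radial glia, the dividing neural stem cells of the embryonic brain wall, carried little of most members. In E14 neurons 5 of the 6 genes were at least 2-fold higher than in 487 radial glia-like nuclei, where 16.9% of 15736 genes were, and none was at least 2-fold lower, where 17% were. The median log2 fold of the 6 genes was 2.85, against -0.21 for all genes. Scn2a was 11.3-fold higher in neurons (8.61 to 15.2), with 15.6 CPM (11.6 to 20.4) in radial glia-like nuclei. Scn3b was 8.72-fold higher (6.196 to 12.7) and Scn3a 8.47-fold higher (7.23 to 9.98). Scn1a was 4.51-fold higher (3.40 to 6.12), and Scn2b 6.11-fold higher on 4 radial glia UMIs (2.35 to 22.6). With classes taken from Seurat clusters these 5 folds were smaller, from 2.78 for Scn2b to 4.79 for Scn2a, and the same 5 genes stayed past the 2-fold limit.
Scn8a was the exception, at 72.9 CPM (63.9 to 82.7) in radial glia-like nuclei and 1.81-fold higher in neurons (1.59 to 2.07). It supplied 48.3% (43.8 to 52.8) of the alpha UMIs of radial glia-like nuclei, against 31.5% (27.4 to 35.8) for Scn3a; per gene length the parts were 39.9% and 41.5%, so the order of these genes turned with the length. Scn8a CPM were 120 in the shallow, 77.2 in the middle and 64.6 in the deep set of these nuclei, and Scn3a values were 23.4, 21.2 and 58.8. The general neuron markers stood at 479, 423 and 755 CPM in the same sets, so the set with the highest Scn3a level also had the highest neuron marker level; their part in the Scn3a values was not tested.

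UMIs of the general neuron marker list were found in all non-neuronal classes. In radial glia-like nuclei the list was at 12.4% of its level in E14 neurons. Scn3a (11.8%), Scn3b (11.5%) and Scn2a (8.82%) were close to that share there. Scn2b was at 16.4% of its own level in neurons, Scn1a at 22.2% and Scn8a at 55.3%. In fibroblast-like, macrophage-like and choroid plexus-like nuclei of the E14 library the list was at 32.1%, 41.2% and 31.7%, and Scn3a at 31.7%, 41.7% and 31.7%. Scn3a in these 3 classes was within 1 percentage point of the neuron markers. The part of neuronal RNA in its level there was not tested. In endothelial-like nuclei the list was at 14.1% and Scn3a at 18.2%. The 89 committed progenitor-like nuclei were deep, with a median of 18132 UMIs, and held the list at 55.1% and Scn3a at 50.9%. Scn2b departed most from the list, at 207% of its neuron level in fibroblast-like nuclei, where it stood at 15.4 CPM (10.1 to 22.4), and it had its highest E14 value there.

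**Figure D4:**
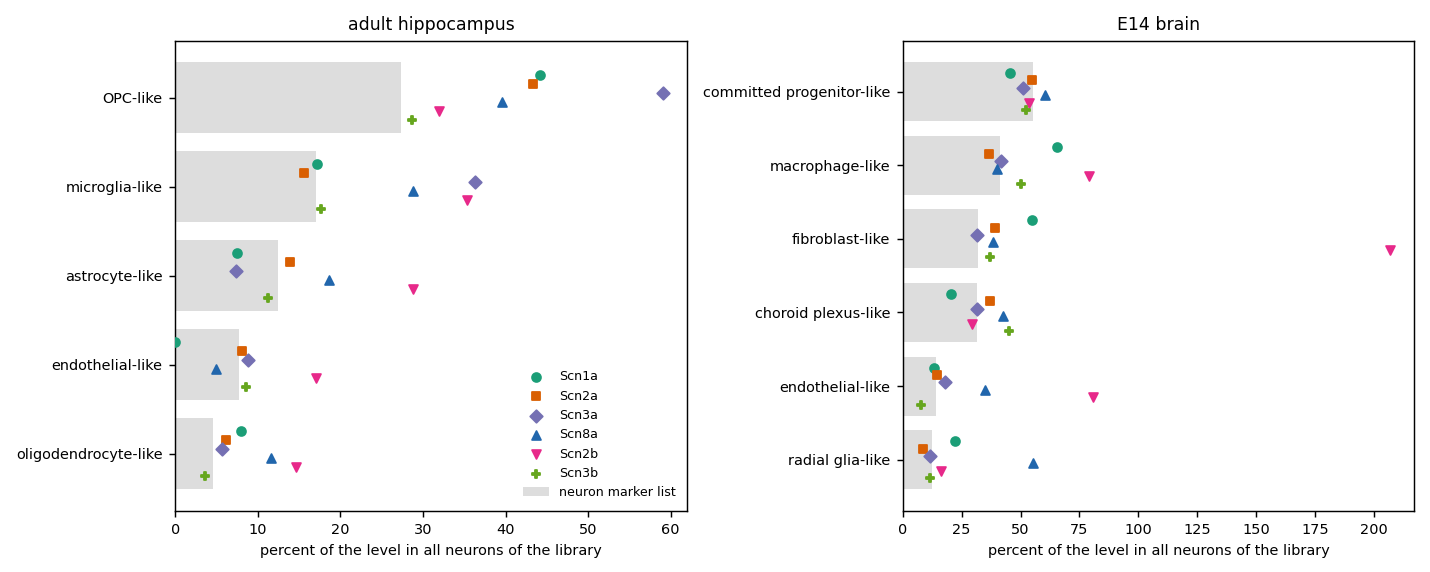
For each non-neuronal class (rows), the summed level of the 8 general neuron markers (grey bar) and the level of each of the 6 genes (points), as percent of the level in all neurons of the same library. Scn8a lies beyond the bar in E14 radial glia-like nuclei (55.3% against 12.4%), and Scn2b in E14 fibroblast-like nuclei (207% against 32.1%). Other classes show this too. In E14 endothelial-like nuclei Scn8a is at 34.9% and Scn2b at 80.7% against 14.1%, with Scn2b at only 6.01 CPM (2.20 to 13.1). The 8 markers also served to set the E14 classes and the 6 genes did not, so the bar is no neutral background there.

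All 6 genes were at least 2-fold higher in adult neurons than in 491 adult non-neuronal nuclei, where 17.3% of 13538 genes were, and none was at least 2-fold lower, where 21.3% were. Folds ran from 4.36 for Scn2b (3.06 to 6.42) to 9.64 for Scn3b (6.68 to 14.4), with a median log2 fold of 2.83 against -0.19 for all genes. With the E14 neuron list in the adult library, the folds were 2.501 for Scn3b, 3.21 for Scn3a and 3.45 for Scn8a, and with Seurat clusters that of Scn2a was 4.52. Oligodendrocyte-like nuclei, with 240 nuclei the largest of these classes, held 54.1 CPM of Scn8a (39.3 to 72.7) and 7.38 of Scn3a (2.71 to 16.1), which are 11.5% and 5.62% of the neuron levels, beside 4.59% for the neuron markers. Oligodendrocyte precursors are glia known to carry sodium channels, and the 33 oligodendrocyte precursor-like nuclei had the highest values of all 4 alpha genes among the adult non-neuronal classes, with intervals that overlapped those of microglia-like nuclei. There Scn3a was at 77.6 (46.0 to 123), Scn1a at 81.9 (49.3 to 128), Scn2a at 155 (109 to 215) and Scn8a at 185 (134 to 250) CPM. These are 59.0%, 44.2%, 43.3% and 39.5% of the neuron levels, and the neuron marker list was at 27.4%; the part of neuronal RNA in these levels was not tested. In 37 endothelial-like nuclei, no Scn1a UMI was found among 173295 UMIs, which allows up to 17.3 CPM at 3 counts (exact upper bound 21.3).

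The other genes of sodium channel biology were taken from a list of 33, of which 32 were in the files. Between adult and E14 neurons 28 could be compared; 8 (of all genes 15.9%) were at least 2-fold higher and 6 (of all genes 23%) at least 2-fold lower in the adult. Scn9a, an alpha gene known for pain-sensing neurons, was at 129 CPM (126 to 133) in E14 and 44.4 (40.7 to 48.3) in adult neurons, 2.91-fold lower (2.66 to 3.19).
In the adult, Scn9a was at 282 (255 to 311) CPM in thalamic-like and 321 (258 to 395) in inhibitory-like neurons, whose intervals overlap, against 5.40 (3.25 to 8.43) in CA1. FGF homologous factors bind the channels' cytoplasmic tail and change their inactivation. Fgf13 was 3.93-fold lower in adult than E14 neurons (3.77 to 4.10), Fgf12 was 2.07-fold higher (2.02 to 2.13) and Fgf14 was 1.37-fold higher (1.35 to 1.39). Within the adult, Fgf13 was 13.8-fold higher in inhibitory-like than in excitatory-like neurons (12.6 to 15.1).
Of the 7 scaffold genes of initial segments and nodes, Sptbn4, the spectrin of these membranes, was 2.94-fold higher (2.78 to 3.10) and Cntn1, a cell adhesion protein, 2.22-fold higher in adult neurons, while Cntn2, an axonal adhesion protein, was 3.73-fold lower (3.19 to 4.38). Ank3, which anchors the channels at the initial segment, was at 2392 CPM in E14 and 1669 in adult neurons, within the 2-fold limit. Atp1b1, a subunit of the sodium pump, was 9.08-fold higher in the adult (8.67 to 9.51), and Unc80, a partner of the sodium leak channel, 8.31-fold higher (7.85 to 8.81), whereas Nalcn, the leak channel itself, was at 228 CPM at E14 and 229 in the adult. Fyn, a kinase, was 2.13-fold lower (2.02 to 2.24).
Against radial glia-like nuclei, 15 of 28 list genes were at least 2-fold higher in E14 neurons and 0 lower, where 16.9% and 17% of all genes were; among those with at least 50 CPM, Sptbn4 was 15.3-fold (9.52 to 26.3) and Scn9a 12.5-fold (8.92 to 18.1) higher.

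Genes with a pattern like each member were sought over the 24 classes of both libraries, by Pearson's r of log2(CPM + 10), among 12120 genes that are no markers. Classes of 1 library share their background and depth, so the values are descriptive. The nearest to Scn3a were Gm16351 (r = 0.930), Usp29 (0.922) and Klhdc10 (0.918). The nearest to Scn1a were Gpr158 (0.932), Snhg11 (0.907) and the channel partner Fgf12 (0.904). The nearest to Scn2a were Disp2 (0.953) and Dmtn (0.940). Scn8a was nearest to Grin1 (0.924), Ttll11 (0.918) and Stxbp5l (0.916), Scn2b to Sncb (0.936), Unc80 (0.928) and Ndrg4 (0.927), and Scn3b to Add2 (0.905), Celf5 (0.897) and Ksr2 (0.889).

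Scn1a, Scn3a, Scn2b and Scn3b each overlap an annotated gene on the opposite strand, and whether counting used the strand is not given in the sources used here. The gene inside Scn3a, Gm13595, had 1016 UMIs at E14 and 76 in the adult, beside 19575 and 1692 for Scn3a itself. Gm13630 within Scn1a had 174 and 90 UMIs, beside 3332 and 2471, and Gm10684, which spans Scn2b, had 104 and 40 beside 396 and 932. The partner of Scn3b is not in the feature list.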

How the data were processed

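Slide-tags single-nucleus RNA-seq of 2 mouse tissues was used, 1 library each. The deposited values are UMI counts for each gene and barcode with no normalization, made by the authors with mm10 as reference and introns counted. The file headers name Cell Ranger 6.1.2 (adult) and 7.0.1 (E14). CellBender is in the study's methods for the embryo, but the embryonic file carries a Cell Ranger header and was taken as counts before that step.

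A barcode was kept from 500 UMIs and with less than 5% of them mitochondrial, which left 1609 of 1661 and 9036 of 9037. Each class started from its 30 nuclei with the highest marker score. Nuclei were then assigned by Poisson likelihood over all marker genes in 10 rounds, with a lead of at least 3 log-likelihood units and at least 3 UMIs from 2 markers of the class. Names required at least 3 detected markers, and fewer markers of any other list than of the own list among the 10 leading genes. A list with no marker among those 10 could still give a name if the other lists had none there either. CA1-like nuclei were named in this way. The mural-like list of both libraries, the adult choroid plexus list and the erythroid and striatal lists of E14 gave no named class. The general neuron list of E14 (1 of 8 markers detected above other classes) gave no name either, and its nuclei are kept as other neurons. These limits and the scoring were set after class sizes were seen, and the 6 genes and all lists were chosen with earlier results of these data known.

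Genes named in the text are the 6 members in every class with at least 20 nuclei, list genes with at least 50 CPM in either neuron pool (others as counts), and up to 3 nearest genes by correlation. Some genes that meet this rule are not reported here. Folds use genes with at least 50 UMIs in both pools together, with exact binomial intervals. Shares have Clopper-Pearson intervals, and a count of 0 was read as up to 3. The class functions were tested on simulated data. Python 3.11 was used, with Seurat 5.3.0 for the clustering alternative. The minimum of UMIs, mitochondrial limit, class rule, doublets, neuron list, weighting, thinning, Malat1 share, gene length and fold limits were varied.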

Additional observations from a re-analysis of the deposited data

How the results depend on the processing

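No paired analysis was possible because each tissue has 1 library, and no library could be left out. The Scn3a share of alpha UMIs in adult neurons, 11.5%, became 7.63% with the E14 neuron list used in both libraries, which kept 181 of the 843 adult neurons and 4 of the 394 dentate granule-like nuclei, 9.07% with equal weight for each subclass and 16.1% per gene length. In E14 neurons, 51.7% became 50.8% with nuclei thinned to 1000 UMIs and 60.8% per gene length. Over all 11 alternatives the shares ran from 7.63% to 16.1% in the adult and from 50.8% to 60.8% at E14. With the E14 neuron list in both libraries the Scn3b fold of adult over E14 neurons turned from 1.54 to 0.569; the other members kept their direction in that comparison under all 10 alternatives, Scn3a between 0.239 and 0.342. With Seurat clusters, 1 rather than 2 members were at least 2-fold lower in inhibitory-like neurons; the inhibitory pool held 20 nuclei or more under 3 alternatives, and gave no value under the others. The cause of these moves was not tested, beside the nuclei that the E14 list leaves out. The folds against radial glia-like and non-neuronal nuclei kept their direction under all 8 alternatives each. Thinning to 2000 UMIs gave Scn3a shares of nuclei of 21.6% (adult) and 52.1% (E14) and Scn1a shares of 27.1% and 12.2%; without thinning they were 65.95%, 73.9%, 71.6% and 27.4%. With a 1.5-fold limit, 1 member (Scn1a) rather than 0 was lower in dentate granule-like than CA1-like nuclei; in the other 5 comparisons the counts of members stayed within 1.5 times. Scrublet marked too few nuclei to have worked, so the 21 and 653 nuclei with the highest scores were removed instead. Depth limits classes under 50 nuclei most, and the single library per tissue means that no spread between animals is known.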
